A study of Mus musculus with 5 samples.

Results

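The 9 chemokine receptor genes described here were measured in natural killer T (NKT) cells of the mouse thymus: Ccr2, Ccr4, Ccr6, Ccr7, Ccr8, Ccr9, Cxcr3, Cxcr4 and Cxcr6. They were chosen by name, with earlier results of these data known. Each probe whose RefSeq transcript belongs to one of these symbols was taken. This gave 11 probes for 9 of the 20022 genes with a named probe. Ccr8 and Cxcr6 had 2 probes each, and the other 7 genes had 1. All 11 probes were well above background on all 5 arrays. The cells were CD3e-positive and bound a CD1d tetramer, and came from T-cell-enriched suspensions of 10 pooled thymi per sample. Wild-type C57BL/6 mice (3 samples) were compared with mice on the same background that carry a deletion of the interleukin-15 gene (IL15-/-, here IL15ko, 2 samples), and the labels name no other allele or treatment. Interleukin-15 is a cytokine on which NK cells and memory T cells depend. The sex and age of the mice are not given in the sources used here.

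Chemokine receptors are membrane proteins coupled to inhibitory G proteins, and a cell that carries one moves towards the source of its ligand. In the thymus they place developing T cells in cortex or medulla, and in mature T cells the set of receptors differs between tissues and between effector subsets. NKT cells fall into subsets that resemble T helper subsets: NKT1 cells, which depend on T-bet, NKT2 cells, which produce interleukin-4, and NKT17 cells, which produce interleukin-17. In a bulk sample of sorted cells, fewer cells of one subset and less RNA per cell cannot be told apart.

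The arrays differed in brightness, with 33.9% of probes well above background on IL15ko 2 and 44.6% to 49.6% on the other 4. Wild-type 1 and 2 were close to each other, with an SD of their log2 difference, estimated from the median absolute deviation over probes, of 0.155, against 0.365 and 0.393 for their pairs with wild-type 3 and 0.386 for the IL15ko pair. All 8 markers of T and NKT cells were well above background on every array, among them Cd3e and Zbtb16. Of the 8 genes of double-positive and immature thymocytes 1 was (Dntt), and Rag1, Rag2, Ptcra, Cd8a and Cd8b1 were well above background on no array. The probe for Xist, a transcript of the inactive X chromosome, was well above background on both IL15ko arrays and on no wild-type array (at least 24.7-fold higher, limma adjusted p = 0.00558). Such a bound takes for each array of the dim group its lowest signal well above background, or the measured one where that is higher. The Y-linked Eif2s3y was well above background on all 5 arrays and 3.93-fold lower in IL15ko (limma adjusted p = 0.0059). Genotype and the sex make-up of the pools cannot be told apart in any result below.

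Levels are given as log2 of the processed signal relative to the 75th percentile of each array, so that 0 is that percentile and a step of 1 is a doubling. The lowest level well above background on an array lay between -7.22 and -4.92. A difference is IL15ko minus wild-type on that scale, from a limma fit over all 11997 genes tested, with a moderated standard error (SE) and Benjamini-Hochberg adjustment, and was called at an adjusted p under 0.05. Levels of different genes are not read as relative amounts of RNA, since probes differ in how well they bind. Where levels of genes are subtracted or summed within an array, the values serve to compare arrays.

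Without IL-15 the chemokine receptors of thymic NKT cells moved in both directions. Of the members, 4 were called higher (Ccr9, Ccr7, Ccr6 and Ccr4), 2 lower (Cxcr3 and Cxcr6), and 3 did not pass (Ccr8, Ccr2 and Cxcr4). Of all genes tested 7.33% were called, 3.75% higher and 3.58% lower. The levels of both groups did not overlap in 7 of the 9 members, against 47.2% of all genes with a level on every array. The median difference over the members was 0.22, beside 0.015 over all genes tested. Since the members were chosen with earlier results of these data known, these shares and medians are a description. The labels do not say that replicates were separate pools of animals, so each p rests on a spread that may be technical. For 1 gene alone, 3 arrays against 2 allow no two-sided exact permutation p below 0.1.

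**Figure D1:**
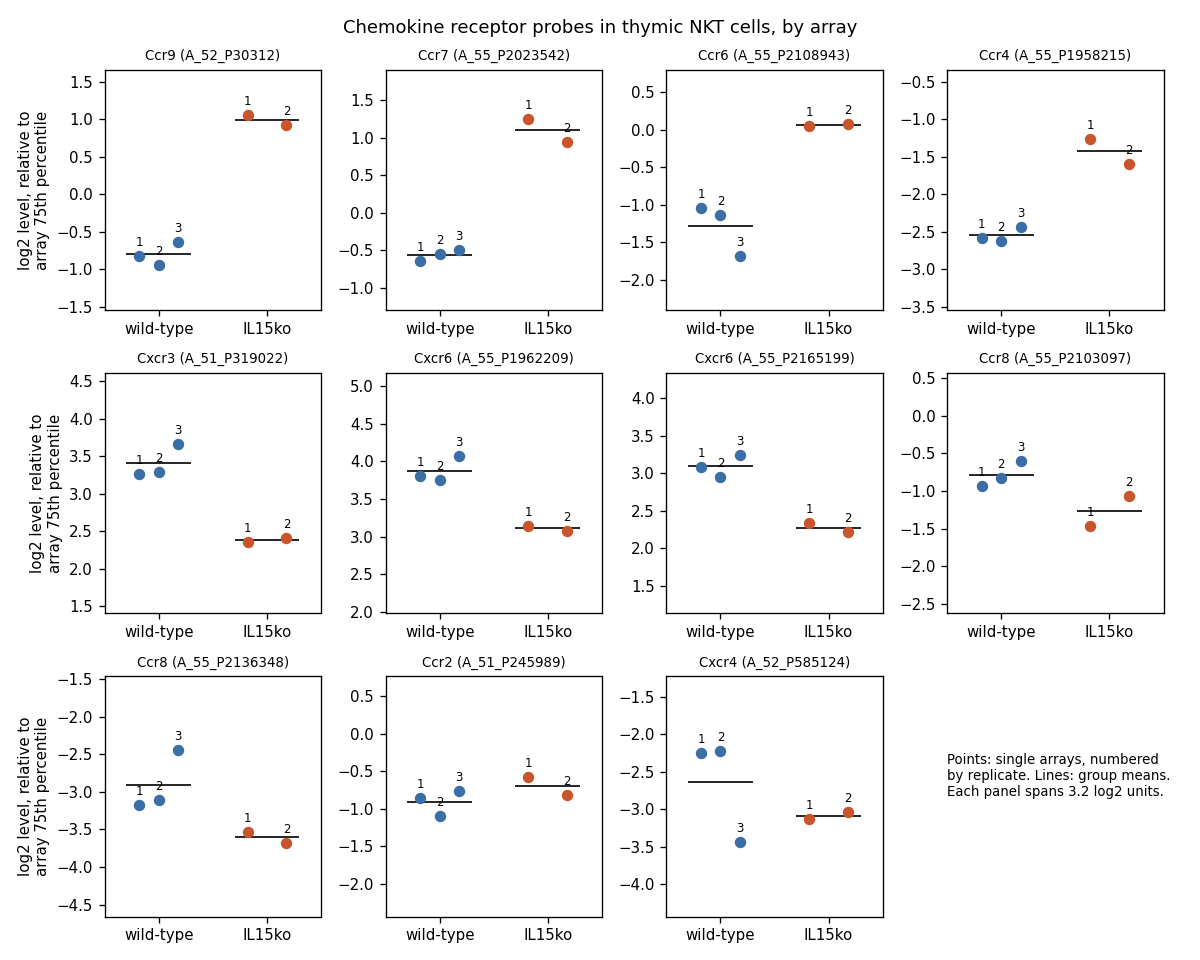
Log2 level (y axis, relative to the 75th percentile of the array) of the 11 chemokine receptor probes in wild-type and IL15ko samples. Points are single arrays numbered by replicate, and lines are group means. Groups are apart for Ccr9, Ccr7, Ccr6, Ccr4, Cxcr3 and both probes of Cxcr6 and Ccr8, and overlap for Ccr2 and Cxcr4.

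The largest rise was in Ccr9, the receptor for CCL25, which thymic and gut epithelium make and which draws thymocytes and gut-homing T cells. Its level was -0.82, -0.94 and -0.63 in wild-type 1 to 3 and 1.05 and 0.92 in IL15ko 1 and 2. Both IL15ko arrays thus lay above all 3 wild-type arrays, by more than the range within either group. The difference was 1.78 ± 0.15 (SE), a 3.44-fold rise (95% confidence interval 2.65 to 4.47, limma adjusted p = 0.00881).

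Ccr7, the receptor for CCL19 and CCL21, guides thymocytes into the medulla and naive T cells into lymph nodes. Its level was -0.65, -0.56 and -0.50 in the wild-type samples and 1.25 and 0.94 in the IL15ko samples. The groups did not overlap, and the spread was wider in IL15ko. The difference was 1.67 ± 0.15 (3.17-fold, 95% confidence interval 2.44 to 4.13, limma adjusted p = 0.0101). Ccr9 and Ccr7 were the members that were called most often in other settings, in 14 and 13 of 17 alternatives. Without wild-type 1 neither passed, with a limma adjusted p of 0.055 for Ccr9 and 0.0578 for Ccr7.

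Ccr6 binds CCL20 and is carried by interleukin-17-producing T cells. Its level was -1.05, -1.13 and -1.69 in wild-type 1 to 3 and 0.05 and 0.08 in IL15ko 1 and 2. Wild-type 3 was the lowest array, and both IL15ko arrays were nearly equal. The difference was 1.35 ± 0.23 (2.55-fold, 95% confidence interval 1.71 to 3.80, limma adjusted p = 0.0329). Ccr4 binds CCL17 and CCL22 and is carried by type 2 helper T cells and skin-homing T cells. It stood at -2.58, -2.63 and -2.43 in the wild-type samples and at -1.26 and -1.59 in the IL15ko samples, with no overlap. The difference was 1.12 ± 0.16 (2.17-fold, 95% confidence interval 1.65 to 2.87, limma adjusted p = 0.0227). The calls of Ccr6 and Ccr4 were lost without any one array other than wild-type 3, with limma adjusted p-values of 0.0821 to 0.145 for Ccr6 and 0.0613 to 0.102 for Ccr4, while their differences stayed between 1.15 and 1.47 and between 0.96 and 1.27 over all 5 omissions.

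The lower members were the CXC receptors of type 1 responses. Cxcr3 binds the interferon-induced ligands CXCL9, CXCL10 and CXCL11 and marks T cells that express T-bet. Its level was 3.27, 3.30 and 3.66 in wild-type 1 to 3 and 2.35 and 2.41 in IL15ko 1 and 2. All wild-type arrays lay above both IL15ko arrays, and wild-type 3 was the highest. The difference was -1.03 ± 0.17 (2.04-fold lower, 95% confidence interval 1.51 to 2.74, limma adjusted p = 0.0317). Cxcr3 lies on the X chromosome. Of the 381 tested genes there other than Xist, Cxcr3 among them, 3.41% were called higher and 3.67% lower, and their median difference was 0.029.

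Cxcr6 binds CXCL16, which also has a membrane-bound form, and keeps NKT cells in the liver sinusoids. The brighter probe stood at 3.80, 3.75 and 4.07 in the wild-type samples and at 3.14 and 3.08 in the IL15ko samples. The other probe stood at 3.09, 2.95 and 3.25 against 2.34 and 2.22. On both probes the groups were apart and wild-type 3 was the highest. The fall by the brighter probe was small for a called gene, with a difference of -0.76 ± 0.15 (1.70-fold lower, 95% confidence interval 1.30 to 2.22) and a limma adjusted p of 0.0485, just under the threshold. The second probe gave a difference of -0.82. Cxcr6 was called in 3 of 17 alternatives and Cxcr3 in 7. The call of Cxcr6 was lost without any one array (limma adjusted p = 0.0523 to 0.179) and that of Cxcr3 without any one other than wild-type 3 (0.0858 to 0.128), while the difference stayed between -0.83 and -0.67 for Cxcr6 and between -1.09 and -0.90 for Cxcr3.

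The remaining 3 members did not pass. Ccr8, a receptor for CCL1 found on type 2 helper and regulatory T cells, stood at -0.94, -0.83 and -0.60 in the wild-type samples and at -1.46 and -1.07 in the IL15ko samples. Its second probe stood at -3.17, -3.10 and -2.45 against -3.53 and -3.67. The groups did not overlap on either probe, and the gap between them was smaller than the range within wild-type. The difference of the brighter probe was -0.48 ± 0.19 (limma adjusted p = 0.179, unadjusted p = 0.0482) and that of the second probe -0.69.

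Ccr2, a receptor for CCL2 that is best known from monocytes and is also found on effector T cells, had levels of -0.86, -1.10 and -0.76 in the wild-type samples and of -0.57 and -0.82 in the IL15ko samples. The groups overlapped, and the difference was 0.22 ± 0.17 (limma adjusted p = 0.441), with a 95% confidence interval of -0.21 to 0.64. A change as large as that of Ccr4 or Ccr6 thus lies outside this interval. Cxcr4, the receptor for CXCL12, acts in early thymocytes and in bone marrow retention. It stood at -2.25, -2.22 and -3.44 in wild-type 1 to 3 and at -3.13 and -3.04 in IL15ko 1 and 2. Wild-type 3 lay below both IL15ko arrays, while wild-type 1 and 2 lay above them. The difference was -0.45 ± 0.41 (limma adjusted p = 0.511, 95% confidence interval -1.48 to 0.59). Without wild-type 3 it was -0.85 and passed (limma adjusted p = 0.0393), so 1 array decided whether Cxcr4 was called.

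**Figure D2:**
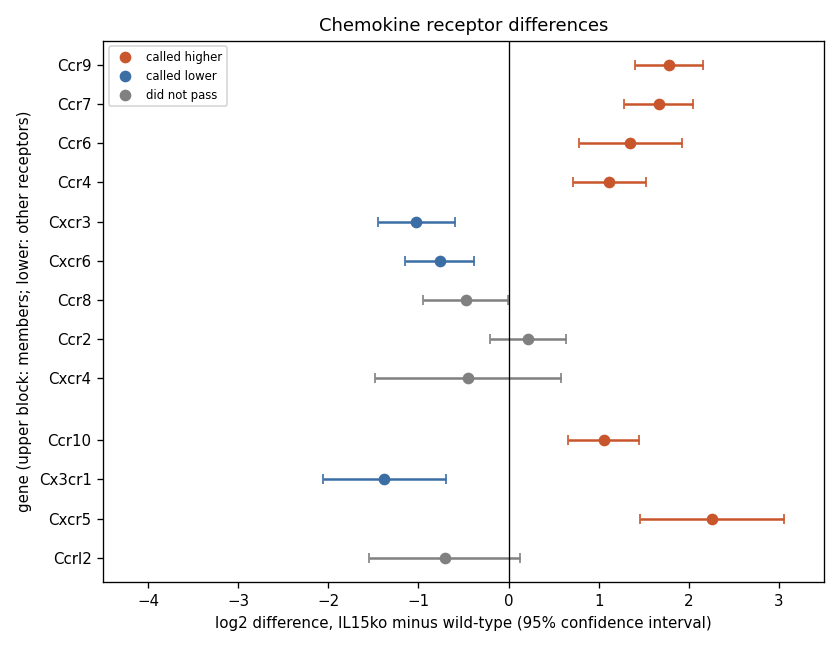
Log2 difference between IL15ko and wild-type (x axis) with its 95% confidence interval from limma, for the 9 members and, below them, 4 other chemokine receptors. Filled points in colour were called. Ccr9, Ccr7, Ccr6 and Ccr4 lie to the right of 0 and Cxcr3 and Cxcr6 to the left.

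The difference of 2 genes within an array does not depend on how that array is scaled. The pairs given here each set a member called higher against one called lower, so that their separation was fixed by the choice and is given as a description, with no test. Ccr9 minus Cxcr6 was -4.62, -4.68 and -4.70 in wild-type 1 to 3 and -2.09 and -2.16 in IL15ko 1 and 2. The change was 2.55. Ccr7 minus Cxcr3 was -3.92, -3.85 and -4.16 against -1.10 and -1.47, a change of 2.69. Ccr6 minus Cxcr3 was -4.32, -4.42 and -5.35 against -2.30 and -2.33, a change of 2.38. Wild-type 3 stood apart from the other wild-type arrays in this pair, and the 3 wild-type values lay close together for Ccr9 and Cxcr6.

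Of the 9 members 5, Ccr2, Ccr4, Ccr8, Ccr9 and Cxcr6, lie on chromosome 9, and 3 of these lie in one cluster of receptor genes. In RefSeq's gene order of assembly GRCm38.p6, Lztfl1, Ccr9, Fyco1, Cxcr6, Xcr1, Ccr1, Ccr1l1, Ccr3 and Ccr2 follow each other. This order goes by the start coordinate of each gene and does not show whether genes overlap. In it Fyco1 alone, a gene of autophagosome transport, stands between Ccr9, which was called higher, and Cxcr6, which was called lower. Fyco1 had a difference of 0.68 ± 0.21 and did not pass (limma adjusted p = 0.117). Lztfl1, on the other side of Ccr9, rose 2.20-fold (limma adjusted p = 0.0163). On its brighter probe the 3 wild-type arrays lay below both IL15ko arrays, while on its second probe, near the background, the groups overlapped. At the far end of these genes Ccr2 did not pass. Xcr1, Ccr1 and Ccr1l1 were well above background on no array and Ccr3 on 1 wild-type array.

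**Figure D3:**
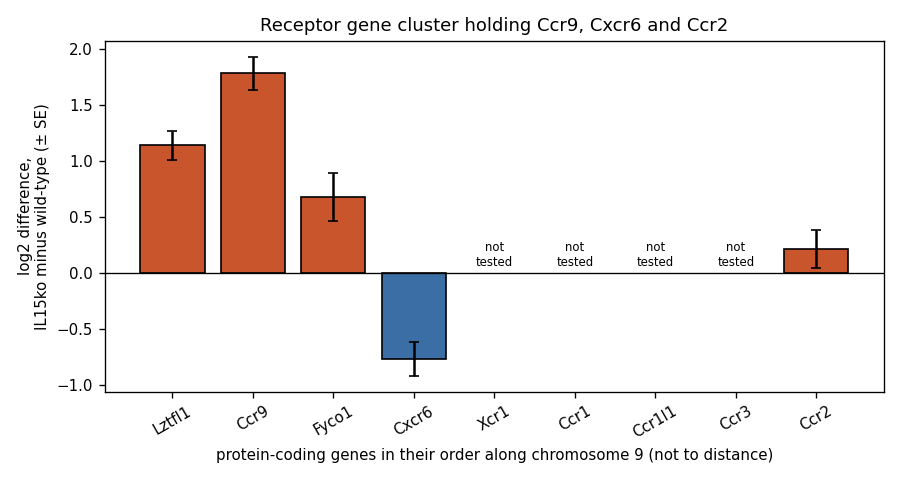
Log2 difference between IL15ko and wild-type (bars, y axis, coloured by sign, with error lines of 1 SE) for the protein-coding genes from Lztfl1 to Ccr2 in their order along chromosome 9 (x axis, not to distance). Ccr9 is up at 1.78 and Cxcr6, the second gene after it, down at -0.76. The 4 genes between Cxcr6 and Ccr2 were not tested.

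Promoter windows of 300 bases (250 before to 50 after the start) were taken from RefSeq, build GRCm38.p6. Of the 9 members 8 matched, with 9 windows, and Ccr6 had 2. They were searched on both strands for 3 motifs that do not overlap each other in these windows, the T-box core GTGTGA, bound by T-bet, the STAT motif TTCNNNGAA, bound by STAT5, and the half-site AGGTCA, bound by several nuclear receptors. Of all 32851 windows 14.5% held the T-box core, 8.3% the STAT motif and 16.3% the half-site. Among the 9 members' windows each was found in 1. Shown are the windows of Ccr9 and Cxcr6, which are close neighbours and were called in opposite directions, and the 2 windows that hold a match, 1 of Cxcr3 and 1 of Ccr6, with each match in capitals.
Ccr9, chr9:123766961-123767260 (plus strand): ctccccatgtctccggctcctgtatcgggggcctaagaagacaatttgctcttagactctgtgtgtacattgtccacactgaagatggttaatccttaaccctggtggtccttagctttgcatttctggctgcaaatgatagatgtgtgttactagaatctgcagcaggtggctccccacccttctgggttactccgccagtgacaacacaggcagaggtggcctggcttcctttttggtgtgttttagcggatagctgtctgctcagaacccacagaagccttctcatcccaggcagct
Cxcr6, chr9:123806227-123806526 (plus strand): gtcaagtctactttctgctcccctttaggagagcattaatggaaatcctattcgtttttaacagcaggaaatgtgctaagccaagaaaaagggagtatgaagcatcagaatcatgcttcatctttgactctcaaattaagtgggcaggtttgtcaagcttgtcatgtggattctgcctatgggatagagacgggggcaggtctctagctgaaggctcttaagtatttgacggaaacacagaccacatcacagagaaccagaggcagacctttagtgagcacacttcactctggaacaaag
Cxcr3, chrX:101734098-101734397 (minus strand): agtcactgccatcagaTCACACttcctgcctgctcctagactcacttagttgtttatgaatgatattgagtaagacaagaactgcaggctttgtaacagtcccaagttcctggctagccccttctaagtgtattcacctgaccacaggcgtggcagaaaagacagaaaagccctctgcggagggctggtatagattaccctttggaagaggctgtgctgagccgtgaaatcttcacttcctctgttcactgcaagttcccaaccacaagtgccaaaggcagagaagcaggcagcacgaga
Ccr6, chr17:8235793-8236092 (plus strand): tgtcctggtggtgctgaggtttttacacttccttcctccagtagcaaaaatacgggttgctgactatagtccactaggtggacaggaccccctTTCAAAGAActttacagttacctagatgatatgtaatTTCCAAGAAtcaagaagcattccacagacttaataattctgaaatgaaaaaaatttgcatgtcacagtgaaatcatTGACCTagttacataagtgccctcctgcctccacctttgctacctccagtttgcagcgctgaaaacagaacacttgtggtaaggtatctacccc
The Cxcr3 window holds the T-box core on its minus strand, with the first base of the match 234 bases before the start. The Ccr6 window holds the STAT motif at 157 and 120 bases before the start and the half-site on its minus strand at 44. The Ccr9 and Cxcr6 windows hold none of these letters. A match is a description of letters in the window, and binding was not measured here.

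The regulators of the NKT subsets differed as follows in the same fit. Tbx21, which encodes T-bet, stood at 2.69, 2.64 and 2.61 in the wild-type samples and at 0.73 and 1.04 in the IL15ko samples, and was 3.40-fold lower (limma adjusted p = 0.00881). Zbtb16, which encodes PLZF, the factor of the NKT lineage, was 2.83-fold higher (limma adjusted p = 0.0161), and Gata3, a type 2 factor, had a difference of 0.14 ± 0.20 (limma adjusted p = 0.683). Foxo1, which acts on Ccr7 in other T cells, was 1.62-fold higher (limma adjusted p = 0.0476). Tbx21 was called in 13 of 17 alternatives, Zbtb16 in 11 and Foxo1 in 2. The call of Tbx21 was lost without wild-type 1 (limma adjusted p = 0.055), that of Zbtb16 without wild-type 1, wild-type 2 or IL15ko 2 (0.0561 to 0.0705), and that of Foxo1 without any one array (0.063 to 0.177). The part of these regulators in the receptors' differences was not tested.

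Of the 15 other chemokine receptors 9 were well above background on no array and Ccr3 was on 1. Among those tested, Cxcr5 and Ccr10 were called higher, Cx3cr1 was called lower, and the atypical receptor gene Ccrl2 did not pass. Cxcr5, the receptor for CXCL13 that leads follicular helper T cells to B cells, stood at -6.16, -6.68 and -6.09 in the wild-type samples, where 1 of 3 arrays was well above background, and at -4.46 and -3.63 in the IL15ko samples. Its difference was 2.26 ± 0.32 (limma adjusted p = 0.0223), against 1.096 with a normexp background correction, where it did not pass (limma adjusted p = 0.277), and 1.64 by the authors' deposited table (0.0328). Ccr10, a receptor for CCL27 and CCL28 in skin and mucosa, rose 2.08-fold (limma adjusted p = 0.0255), with levels of -0.45, -0.53 and -0.36 against 0.78 and 0.44. Without any one array other than wild-type 3 the call of Ccr10 was lost (limma adjusted p = 0.0632 to 0.11), and that of Cxcr5 was lost without wild-type 1, wild-type 2 or IL15ko 2 (0.0637 to 0.0914).

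Cx3cr1, the fractalkine receptor gene, was 2.60-fold lower (limma adjusted p = 0.0462) by a probe that was well above background on 1 of 2 IL15ko arrays, and its other probe had a difference of -1.62. The difference of the brighter probe, -1.38 as reported, was -0.14 with a normexp background correction and -0.70 by the authors' deposited table, and it passed in neither (limma adjusted p = 0.759 and 0.0678). Its call was lost without any one array (0.0583 to 0.177).

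Of the 16 ligand genes of the members 15 had a probe and 7 were tested. Ccl17, a ligand of CCR4, was called higher (1.97-fold, limma adjusted p = 0.0185), with levels of -5.53 to -5.62 in the wild-type samples and of -4.65 and -4.58 in the IL15ko samples, near the background. Its call was lost without any one array other than wild-type 3 (limma adjusted p = 0.0501 to 0.0915). The other 6 did not pass, among them Ccl25 (a difference of 0.48, limma adjusted p = 0.138) and Cxcl16 (0.44, limma adjusted p = 0.291). A dimmer probe of Ccl25, well above background on 1 of 2 IL15ko arrays, had a difference of -0.80. Ccl2, Ccl7, Ccl8, Ccl12, Ccl20, Ccl22, Cxcl9 and Cxcl12 were well above background on no array.

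Of 23 genes of G protein signalling 21 were tested, of which Tiam1, an activator of the GTPase Rac, was called higher (2.73-fold, limma adjusted p = 0.0417), Gng2, a G protein gamma subunit, lower (1.68-fold, limma adjusted p = 0.0342), and 19 did not pass. The median difference of the list was 0.002. Gnai2, the main inhibitory alpha subunit in lymphocytes, had a difference of 0.26 ± 0.17. Of 13 tested genes of receptor desensitization 1 was called higher, Grk3, a receptor kinase (2.55-fold, limma adjusted p = 0.0239), and 12 did not pass, with a list median of 0.073. Rgs1, which speeds the turn-off of G proteins, had a difference of -1.95 ± 0.40 and a limma adjusted p of 0.0514. The calls of Tiam1 and Grk3 were lost without any one array other than wild-type 3, and that of Gng2 without any one array (limma adjusted p = 0.0519 to 0.134).

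**Figure D4:**
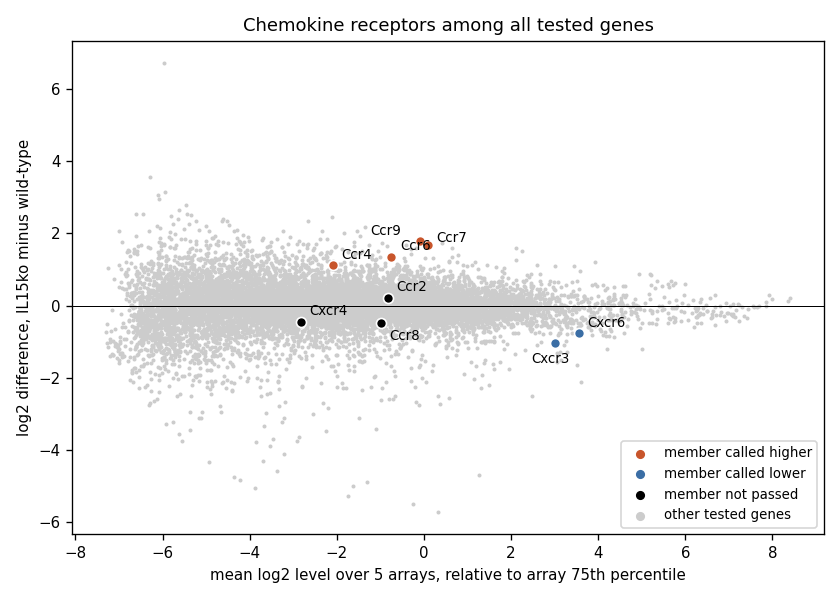
Log2 difference between IL15ko and wild-type (y axis) against the mean log2 level over the 5 arrays (x axis) for the 11997 genes tested, with the 9 members marked. The 4 members called higher lie between 1.12 and 1.78, and Cxcr3 and Cxcr6 at -1.03 and -0.76. Ccr2, Ccr8 and Cxcr4, which did not pass, lie between -0.48 and 0.22.

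Markers of other cells were set beside these results. Of 6 NK cell markers 3 were called lower and none higher, and the summed level of the list, in multiples of the 75th percentile of an array, was 7.13 to 7.85 in wild-type and 1.5 to 2.07 in IL15ko. These markers moved in the same direction as Cxcr3 and Cxcr6. Klrk1, Klre1 and Klrb1c, the 3 called, are carried by NKT1 cells as well. Ncr1, a receptor gene that defines NK cells, was well above background on no array. Itga2 had a difference of -0.75 and did not pass (limma adjusted p = 0.218). Its probe cleared the background mark in 2 wild-type samples, and the brighter probe of Eomes did so in 1. Neither probe did so in an IL15ko sample. For macrophages, monocytes and dendritic cells, which carry Ccr2, the summed level of the probes of 11 markers was 32.6 to 50.7 in wild-type and 32.2 to 42.8 in IL15ko. Nearly all of it came from 1 probe of Siglech, whose other probe was well above background on no array, and without Siglech, a split made after the values were seen, the sum was 2.08 to 3.03 in wild-type and 2.12 to 2.24 in IL15ko. Of this list Cd74, the invariant chain of MHC class II, was called higher (2.09-fold, limma adjusted p = 0.0294). Csf1r had a difference of -2.29 on its brightest probe (limma adjusted p = 0.0508) and of 0.28 and -0.81 on its other probes. Lyz2, Itgax, Adgre1 and Flt3 were well above background on no array. Of 5 markers of granulocytes and mast cells S100a9 was called lower (at least 3.32-fold, limma adjusted p = 0.00382). Of 6 B cell markers Cd79b alone was well above background on every array, and Cd79a, Ms4a1 and Pax5 were so on none. The part of these cells in the receptors' differences was not tested.

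All 9 members kept the sign of their difference in all 17 alternatives, while the count of calls varied. It was 6 over all arrays, 6 without wild-type 3 (with Cxcr4 in place of Cxcr6), 2 without wild-type 2, without IL15ko 1 or without IL15ko 2, and 0 without wild-type 1. Ccr7 and Ccr9 were the 2 called in each of those 3 cases with 2 calls. Without wild-type 1, 6 members had an unadjusted limma p under 0.05, as did 2080 of the 11864 genes tested there.

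**Figure D5:**
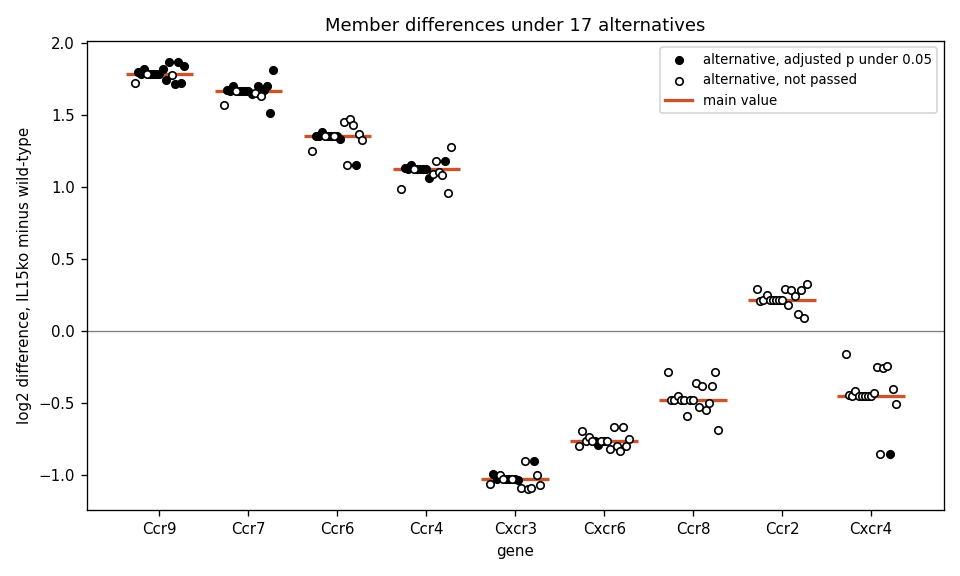
Log2 difference between IL15ko and wild-type (y axis) of each member (x axis) over all arrays as reported (coloured line) and in 17 alternatives (points, filled where the adjusted p was under 0.05). No point lies on the other side of 0 from its main value, while filled and open points mix for the 6 members called above.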

How the data were processed

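Single-colour Agilent arrays of 5 samples were used, 3 wild-type and 2 IL15ko, grouped and numbered by their labels. Linear intensities, per the file headers, come from Agilent Feature Extraction 10.7.1.1, and were background-subtracted and detrended within each array and not scaled between arrays. The outlier and background flags are other columns that, per the file headers, the same software set. The authors' deposited value table holds linear intensities as well, which equal each spot's median less its local background median, offset by 1 constant for each array whose origin is unknown.

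Control and outlier spots were left out, log2 signals of spots of 1 probe averaged, and each array's 75th percentile subtracted, taken over the 18519 probes that all arrays showed well above background. No probe was saturated. Accessions were matched to RefSeq symbols (GRCm38.p6), naming 26425 of 55681 probes, 0 with several symbols. A gene was represented by its brightest probe and tested if 2 or more arrays showed it well above background. Groups were compared with limma 3.58.1 in R 4.3.3 (3 residual and 2.28 prior degrees of freedom), without covariates, and the fit was tested on simulated data. The number of arrays limits the precision. All 9 members were named with all probes, as were called members of the other lists (up to 5 per direction) and the fixed subset regulators; some are not reported here, and any other gene was named with its values known. The members and lists were chosen with earlier results of these data known. The genome build named in the headers differs from that of RefSeq's table, so no gene coordinates are given beyond those of the printed windows.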

Additional observations from a re-analysis of the deposited data

How the results depend on the processing

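Over 17 alternatives none of the 153 differences of the 9 members changed sign. Limma called 879 genes, 6 members and 12 genes of the context lists as reported. With a normexp background correction (offset 50, on spot and background medians, since spot means are not in the columns used here) it called 1, 0 and 0, and without a filter on dim probes 3, 0 and 0. At an unadjusted p under 0.05 there were 6 members in both of these settings, and 19 and 26 genes of the context lists. Of all genes tested, 1958 of 11996 with normexp and 2750 of 20022 without the filter were under that threshold. The median difference of all genes rose from 0.015 to 0.216 with normexp and to 0.243 without the filter. Relative to those medians every member kept its sign with normexp, and Ccr2 alone, at 0.22, fell below the median without the filter. A trended, robust prior gave 1515 genes, 6 members and 21 context genes, wild-type 1 and 2 averaged into 1 sample 101, 1 (Ccr9) and 1, and each probe tested singly 725, 3 and 9. The authors' deposited table gave 751, 5 and 7. Leaving out 1 array gave 66 to 909 genes, 0 to 6 members and 1 to 11 context genes, and where it left 1 IL15ko array, that array was assumed to vary like wild-type. With the replicate block the counts were 379, 2 (Ccr7 and Ccr9) and 5. The shared numbers are not known to pair samples: deviations of same-numbered samples correlated at -0.129 and 0.209. Of the other genes named, Gata3, at 0.14 over all arrays, ranged from -0.002 without wild-type 2 to 0.28 without wild-type 3. A slide block was not run, since all arrays came from 1 scan. Signals near background limit Cx3cr1, Cxcr5, Ccl17 and Grk3. With normexp their differences were -0.14, 1.096, 0.65 and 0.85, against -1.38, 2.26, 0.98 and 1.35 as reported. Their lost calls do not set them apart, since normexp called no member and no gene of the context lists.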
